A study of Mus musculus with 19 samples.

Results

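The Notch pathway was described in cultured mouse hepatic stellate cells (HSCs) through 8 genes: the receptors Notch1, Notch2 and Notch3, the ligand Jag1, the nuclear mediator Rbpj and the target genes Hes1, Hey1 and Heyl. They were chosen by gene symbol from the 55487 genes of the count table, all 8 were found, and all 8 had enough counts to be tested among 15138 genes. Notch is a receptor on the cell surface that is cut when a ligand on a neighbouring cell pulls on it. The part that is set free moves to the nucleus, joins the DNA-binding protein RBPJ and switches on Hes and Hey genes, which encode repressors of transcription. In the liver this pathway is best known for the formation of bile ducts and for the identity of vessel cells, and it has also been studied in HSC activation.

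HSCs are the vitamin A storing cells of the liver sinusoid that turn into matrix-producing myofibroblasts after injury, and culture on plastic sets off a similar change. All 19 samples came from male Balb/c mice without liver injury, 23 to 24 weeks old, and were sorted by the ultraviolet signal of stored vitamin A. Cells were collected at once (0 h, n = 2) or kept on collagen-coated plates in medium with 10% serum for 3, 6, 12, 18 or 96 h (n = 3 per time) or 24 h (n = 2). The samples carry the numbers M1, M2 and M3, with M2 from one isolation date and M1 and M3 from another, and each is 2 technical repeats combined. The 0 h samples were M2 and M3 and the 24 h samples were M1 and M2.

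Total counts per sample were between 2073171 and 7690892. Values below are counts scaled to 1000000 per sample (CPM), corrected by the trimmed mean of M-values (TMM), from tags at the 3′ end of transcripts, so they compare samples for 1 gene and not 1 gene with another. A count of 0 allows a level of up to 0.385 to 1.5 CPM, taken as 3 counts, depending on the sample. A change was called when edgeR's quasi-likelihood test gave an adjusted p below 0.1 over all tested genes and a fold above 2. The stellate marker list was detected at 0 h with 13 of 13 genes, and its summed level went from 31944 to 37294 CPM at 0 h to 2158 to 2238 CPM at 24 h. Markers of other liver cells were also present. Hepatocyte markers summed to 3576 to 8159 CPM at 0 h and to at most 169 CPM from 12 h on, Kupffer cell and leukocyte markers to 391 to 444 CPM at 0 h and at most 48.0 CPM from 6 h on, and endothelial markers to 2325 to 3268 CPM at 0 h and 361 to 683 CPM at 96 h. Without Plvap, which alone had 318 to 336 CPM at 96 h, the endothelial sum was 1210 to 1760 CPM at 0 h and, at 96 h, 347 CPM in M1, 47.9 CPM in M2 and 43.2 CPM in M3. The bile duct markers Krt19 and Krt7 had no count in any sample. In such mixed samples fewer cells of a type and less RNA per cell cannot be told apart, and the part of these cells in the results was not tested.

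In GRCm38 with the GENCODE M21 annotation, the 8 genes are protein-coding. Notch1 lies at chr2:26457903-26516663 and Jag1 at chr2:137081456-137116644, both on the minus strand. Notch2 lies at chr3:98013527-98150361 on the plus strand, Hey1 at chr3:8663359-8667256 on the minus strand, and Notch3 at chr17:32120820-32166852 on the minus strand. Heyl lies at chr4:123233556-123249875, Rbpj at chr5:53466152-53657362 and Hes1 at chr16:30064384-30067796, all on the plus strand. The counting strand is not given in the sources used here, and the 3′ ends of Notch1 and Notch3 are overlapped by antisense transcripts. Those at Notch1, 0610009E02Rik and Gm13568, had 98 and 16 counts over the 19 samples, and that at Notch3, Gm17276, had none.

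RefSeq start-site windows (GRCm38.p6) were on hand for 5 of the 8 genes: Notch1, Notch2, Notch3, Jag1 and Rbpj. The part of the window that overlaps no annotated exon is shown for Rbpj and Jag1, the nuclear mediator and the ligand whose levels passed the test among these 5. Capitals mark TGGGAA, the core letters that RBPJ recognises, searched as TGGGAA and TTCCCA on both strands. The Rbpj stretch is chr5:53590096-53590213 on the plus strand and the Jag1 stretch is chr2:137116645-137116770 on the minus strand, both written 5′ to 3′ along the gene. The Jag1 stretch lies just before the gene. The Rbpj stretch lies inside the gene, before an internal start site: 4 of 6 coding transcripts start after it and 2 start further upstream and span it.
Rbpj: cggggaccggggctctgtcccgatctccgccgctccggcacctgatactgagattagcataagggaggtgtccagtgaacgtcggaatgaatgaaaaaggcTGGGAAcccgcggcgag
Jag1: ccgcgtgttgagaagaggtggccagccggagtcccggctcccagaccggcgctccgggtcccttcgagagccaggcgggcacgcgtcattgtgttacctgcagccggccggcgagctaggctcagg
The table gives 2 overlapping windows for Rbpj, each of 300 bases, and together they held the letters at chr5:53590197-53590202 and, on the opposite strand, at chr5:53590281-53590286. Neither was found in the windows of the other 4 genes, and the longer GTGGGAA (or TTCCCAC) was in none of the 5. Of 32851 windows of this length, 25.6% held TGGGAA and 6.38% held GTGGGAA, so a match is common and describes the letters only.

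Hes1, the repressor most widely used as a readout of Notch signalling, was lower than at 0 h at every later time. It stood at 2227 and 2579.6 CPM at 0 h. It was 804, 829.8 and 730.0 CPM at 3 h in M1, M2 and M3. At 6 h it was 500.5, 148 and 368 CPM, and at 12 h 489, 239 and 198 CPM in the same order. All later samples were below both 0 h samples, and M1 was the highest at 6 and 12 h. The 18 h samples, at 118, 154 and 148 CPM, had the lowest mean, with M2 at 6 h inside their range. At 24 h Hes1 was 217 CPM in M1 and 182 CPM in M2, and at 96 h 277, 277 and 376 CPM in M1, M2 and M3.

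**Figure D1:**
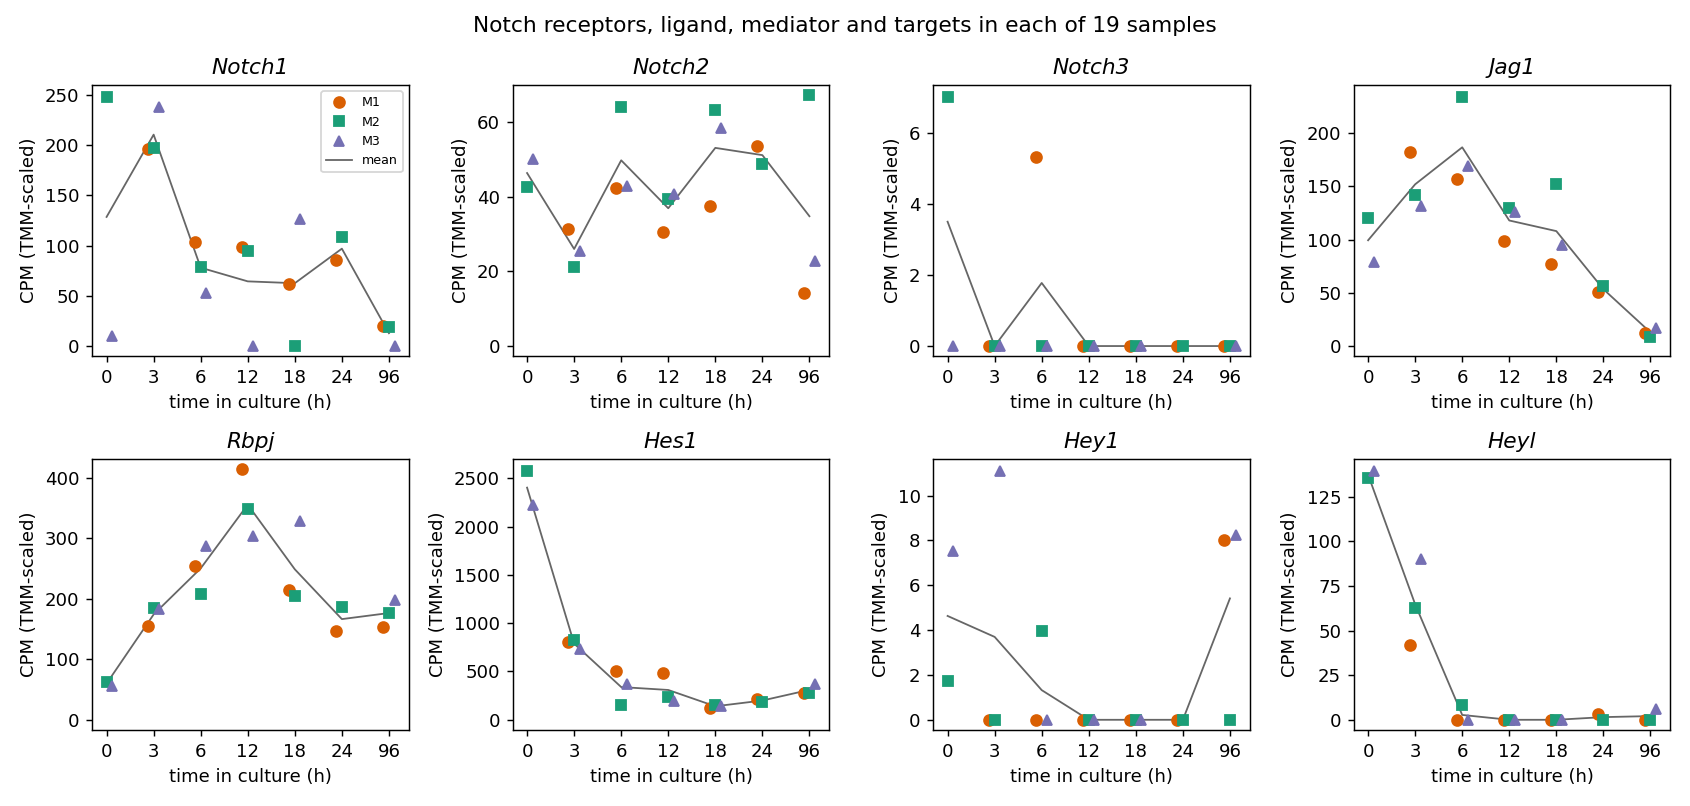
TMM-scaled CPM (vertical axes, each with its own linear scale) of the 8 genes against time in culture in h (times evenly spaced, not to scale), with 1 point per sample, symbols for the numbers M1, M2 and M3, and a grey line through the means. Hes1 and Heyl are highest at 0 h, Rbpj is highest at 12 h, Jag1 is lowest at 96 h, and Notch1 has samples at 0 beside samples near 100 CPM.

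Mean Hes1 was 2403 ± 249.5 CPM (SD, n = 2) at 0 h, 788 ± 51.8 CPM (n = 3) at 3 h and 139.8 ± 19.5 CPM (n = 3) at 18 h. The log2 fold change from 0 h was -1.61 (SE 0.39) at 3 h, with an edgeR adjusted p of 0.0272. At 6, 12, 18, 24 and 96 h it was -2.83, -2.96, -4.10, -3.59 and -2.96, with edgeR adjusted p-values between 5.46e-06 and 2.18e-04. The change at 3 h was no longer called without the 0 h sample M2, where the adjusted p was 0.151. Within M2 and within M3, the 2 numbers with a 0 h sample, the log2 difference of Hes1 from 0 h was between -4.12 and -1.61 at every later time. Between consecutive times Hes1 fell from 3 to 6 h by 1.22 on the log2 scale (SE 0.36, edgeR adjusted p = 0.0811). That step lost its call without any 1 of the 3 h samples and without M2 or M3 at 6 h, with adjusted p-values between 0.109 and 0.169. It was also lost with library size only (edgeR adjusted p = 0.132) and in a fit of the compared groups alone (0.156). Mean Hes1 was 309.7 ± 57.0 CPM at 96 h, and the difference from 18 h to 24 h and from 24 h to 96 h passed no test.

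Heyl, a further repressor of the Hes and Hey family that is used as a Notch target in mural cells, went to few or no counts. It had 135 CPM in M2 and 139 CPM in M3 at 0 h. At 3 h it had 41.7, 62.5 and 89.8 CPM in M1, M2 and M3. From 6 h on it had counts in 3 of 14 samples, with 8.14 CPM in M2 at 6 h, 3.00 CPM in M1 at 24 h and 6.22 CPM in M3 at 96 h. No sample at 12 or 18 h had a count, and every sample from 6 h on was below every sample at 0 and 3 h. Against 3 counts in the shallowest sample of the group, Heyl was at least 198-fold lower at 12 h and at least 188-fold lower at 18 h than at 0 h. Both passed the edgeR test, with adjusted p = 0.0235 at 12 h and 0.0276 at 18 h. At 3, 6, 24 and 96 h the mean of Heyl was 64.7 ± 24.1, 2.71 ± 4.70, 1.5 ± 2.12 and 2.07 ± 3.59 CPM (SD), and it was not called, with edgeR adjusted p-values of 0.909, 0.175, 0.245 and 0.16. With 1 sample left out, Heyl was called at 6 h only without M2 (edgeR adjusted p = 0.0567). At 96 h it was called only without M3 (0.0748). Each was the 1 sample of its time with counts. What is left is a group with no counts, so these calls add no support for lower Heyl at those times. At 24 h Heyl was not called without M1, the sample with counts, which keeps only 1 sample of that time. With all samples kept, a fit of the compared groups alone called Heyl at 24 h (-6.64, adjusted p = 0.0804) and 96 h (-5.95, adjusted p = 0.0641). Summed markers of smooth muscle and portal cells, 161 to 304 CPM at 0 h and 240 to 357 CPM at 3 h, also went to 34.0 to 57.8 CPM at 6 h, but stood at 134 to 160 CPM at 96 h, when Heyl was at 0 in M1 and M2. Their part in the Heyl values was not tested.

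Hey1, the third target gene, was near the counting limit. It had 1.75 and 7.51 CPM at 0 h in M2 and M3, 11.1 CPM in M3 at 3 h, 3.97 CPM in M2 at 6 h, and 8.01 and 8.24 CPM at 96 h in M1 and M3. The other 13 samples, among them all of those at 12, 18 and 24 h, had no count. Hey1 was not called in any comparison, and its smallest edgeR adjusted p was 0.183.

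Rbpj, which encodes the DNA-binding protein shared by all Notch receptors, was higher than at 0 h at every later time. It had 63.3 and 56.6 CPM at 0 h in M2 and M3. At 3 h it had 155, 184 and 184 CPM in M1, M2 and M3, at 6 h 255, 208 and 288 CPM, and at 12 h 414, 349 and 305 CPM. At 18 h it had 214, 204 and 328 CPM, at 24 h 147 and 186 CPM in M1 and M2, and at 96 h 154, 177 and 198 CPM. No later sample was as low as the 0 h samples, and the 12 h samples had the highest mean, with M3 at 18 h inside their range.

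At 0 h the mean of Rbpj was 60.0 ± 4.75 CPM (SD, n = 2), and at 12 h it was 356 ± 55.0 CPM (n = 3). The log2 fold change from 0 h was 1.54, 2.06, 2.57, 2.05, 1.47 and 1.56 at 3, 6, 12, 18, 24 and 96 h, with SE between 0.25 and 0.26 and edgeR adjusted p-values between 4.73e-06 and 0.00171. These 6 calls held under each alternative that was run, and within M2 and M3 the log2 differences from 0 h were between 1.48 and 2.53. No step between consecutive times was called. The 96 h samples were lower than those at 12 h by 1.01 on the log2 scale (SE 0.21, edgeR adjusted p = 0.00451), just past the limit of 2-fold. That call was lost without the 12 h sample M1 (-0.89), without the 96 h sample M1 (-0.92), without all M1 samples (-0.80, adjusted p = 0.166) and under other scalings, all by the fold limit except the third.

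**Figure D2:**
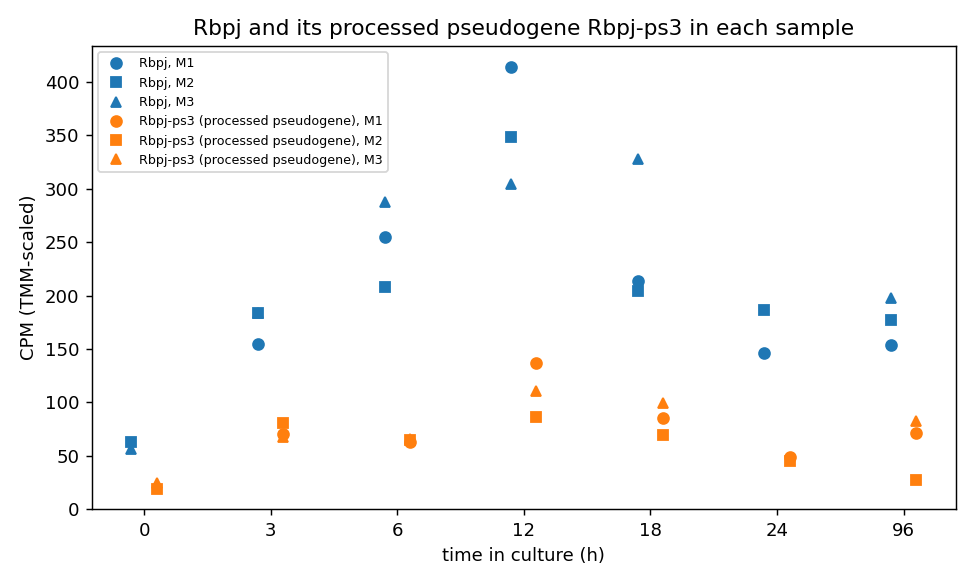
TMM-scaled CPM (vertical axis, linear) of Rbpj (blue) and of the processed pseudogene Rbpj-ps3 (orange) against time in culture in h (evenly spaced), with 1 point per sample and symbols for M1, M2 and M3. Both are lowest at 0 h, and the pseudogene took between 13.4% and 31.8% of the counts of the pair.

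Reads of Rbpj can be shared with Rbpj-ps3, a pseudogene copied from its messenger RNA. Of the 1392 stretches of 50 bases in Rbpj-ps3, 1239 were identical to a stretch of an Rbpj transcript, and in an Rbpj transcript of 5459 bases the shared part lay between bases 274 and 1714, away from the 3′ end. Rbpj-ps3 had 6566 counts over the 19 samples against 20655 for Rbpj. It had 18.5 and 24.5 CPM at 0 h in M2 and M3, and 137, 86.4 and 111 CPM at 12 h in M1, M2 and M3. With both rows added together, the log2 fold change from 0 h was 1.6, 1.95, 2.52, 2.03, 1.39 and 1.54 at 3, 6, 12, 18, 24 and 96 h, all called. The sum at 96 h differed from that at 12 h by -0.98 on the log2 scale (edgeR adjusted p = 0.00314), just short of the fold limit.

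Jag1, a membrane-bound ligand of Notch receptors, was lowest at 96 h. It had 120.1 and 78.6 CPM at 0 h in M2 and M3. At 3 h it had 182, 142 and 132 CPM in M1, M2 and M3, at 6 h 157, 234 and 169 CPM, and at 12 h 98.3, 129 and 126 CPM. At 18 h it had 77.2, 152 and 95 CPM, at 24 h 50.4 and 56.5 CPM in M1 and M2, and at 96 h 12.6, 8.65 and 17.3 CPM. The 96 h samples were below all others, and all samples at 3 and 6 h were above both 0 h samples.

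The mean of Jag1 was 99.4 ± 29.3 CPM (n = 2) at 0 h, 187 ± 41.4 CPM (n = 3) at 6 h and 12.9 ± 4.34 CPM (n = 3) at 96 h. Jag1 fell by 2.95 on the log2 scale from 0 to 96 h (SE 0.35, edgeR adjusted p = 3.47e-05). It was also lower at 96 h than at 24 h (log2 fold change -2.05, edgeR adjusted p = 0.0035), 6 h (-3.86, adjusted p = 1.76e-06) and 12 h (-3.19, adjusted p = 8.63e-06). The difference from 24 h lost its call without the M1 samples, where the adjusted p was 0.114. The higher values at 6 h did not pass (log2 fold change 0.91, SE 0.35, adjusted p = 0.129), nor did the lower ones at 24 h (-0.90, SE 0.37, adjusted p = 0.196), which DESeq2 called (-1.12, adjusted p = 0.0264).

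**Figure D3:**
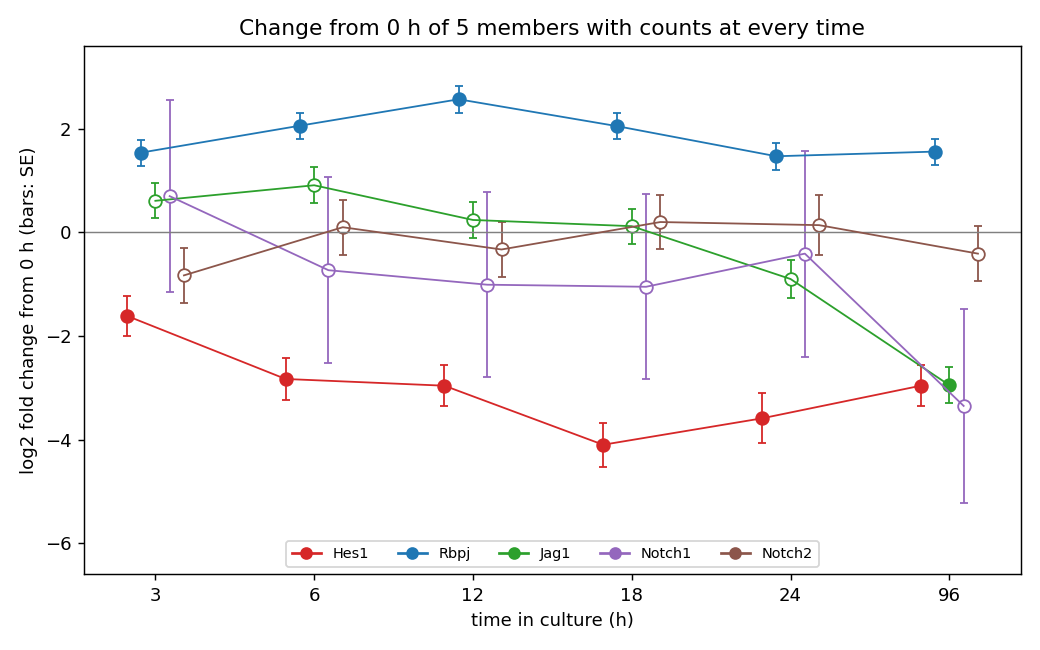
log2 fold change from 0 h (vertical axis) with its SE (bars) at 3, 6, 12, 18, 24 and 96 h for the 5 of the 8 genes with counts at every time, from the edgeR fit. Filled points passed the test: all 6 of Hes1 (below 0), all 6 of Rbpj (above 0) and Jag1 at 96 h. The bars of Notch1 are the longest.

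The receptors showed no change that passed the test over all samples. In a fit of the compared groups alone, Notch1 was called lower at 6 h than at 3 h (-1.40, edgeR adjusted p = 0.0363), and without M2 at 96 h Notch2 was called lower at 96 h than at 6 h (-1.42, adjusted p = 0.0465). Notch1 had 248 CPM in M2 and 9.52 CPM in M3 at 0 h, from 990 and 19 counts. At 3 h it had 196, 198 and 238 CPM in M1, M2 and M3, and at 6 h 103, 78.4 and 52.4 CPM. At 12 h it had 98.8 and 94.5 CPM in M1 and M2 and no count in M3. At 18 h it had 61.3 and 126 CPM in M1 and M3 and no count in M2, at 24 h 85.3 and 109 CPM in M1 and M2, and at 96 h 19.7 and 18.6 CPM in M1 and M2 and no count in M3. The 3 samples with no count were not of 1 number, and each stood beside samples with 69 to 680 counts. The step that assigned reads to genes is not given in the sources used here, and its part in these zeros, which enter the means and SEs of Notch1, was not tested.

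At 0 h the SD of Notch1, 168 CPM, was larger than its mean, 129 CPM. Across genes with at least 50 CPM in 2 of the 3 samples of a time, the third sample was at 0 in 199 of 18243 cases (1.09%), and Notch1 at 12 and 18 h was among them. The log2 fold change of Notch1 at 96 h was -3.35 with an SE of 1.88 (edgeR adjusted p = 0.321), and the test over all times gave an adjusted p of 0.652. The 96 h samples, at most 19.7 CPM, were all below the 6 h samples, at 52.4 to 103 CPM, and that difference was not called either (-2.62, SE 1.74, adjusted p = 0.36).

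Notch2 had counts in all 19 samples, between 14.3 and 67.3 CPM. Its means were 46.3 ± 5.34, 26 ± 5.22, 49.7 ± 12.3, 36.9 ± 5.53, 53.1 ± 13.7, 51.1 ± 3.46 and 34.8 ± 28.5 CPM at 0, 3, 6, 12, 18, 24 and 96 h. Both the lowest and the highest single value were at 96 h, in M1 and M2. The 3 h samples, at 31.5, 21.1 and 25.5 CPM, were below both 0 h samples (50.1 and 42.5 CPM), with a log2 fold change of -0.83 (SE 0.53, edgeR adjusted p = 0.485). The test over all times gave an adjusted p of 0.538. Notch3, the receptor of mural cells, had counts in 2 samples only, 7.01 CPM in M2 at 0 h and 5.33 CPM in M1 at 6 h, so no change was detectable at this depth.

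Among the 8 genes, 2 were called at 3 h against 0 h, beside 5.58% of all tested genes, namely Hes1 and Rbpj. The same genes made up the 2 calls at 6 h, beside 11.3% of all genes, and the 2 at 24 h, beside 9.51%. At 12 h, beside 17.7% of all genes, and at 18 h, beside 15.9%, Heyl brought the count to 3. At 96 h, beside 10.9%, the 3 were Hes1, Rbpj and Jag1. The median log2 fold change of the 8 genes was -0.57 at 3 h and -0.86 at 6 h. With genes at 0 in a whole group set to their bound, it was -1.67, -1.65, -1.67 and -2.49 at 12, 18, 24 and 96 h, against 0 for all tested genes at 3 to 24 h and 0.07 at 96 h. Sparse genes enter these medians, and Rbpj was the 1 gene called higher at any time.

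Between consecutive times, 1 of the 8 was called from 3 to 6 h (Hes1, beside 4.49% of all genes) and 1 from 24 to 96 h (Jag1, beside 2.72%). None was called by edgeR from 6 to 12 h (1.84% of all genes), 12 to 18 h (0.225%) or 18 to 24 h (0.0396%). At an unadjusted p under 0.05 there were 3 of the 8 from 6 to 12 h, 2 from 12 to 18 h and 2 from 18 to 24 h. The share of all genes at that limit is not given. DESeq2 called 0, 1 and 0 of the 8 at these steps, beside 864, 424 and 229 of all genes. From 6 to 96 h 1 was called (Jag1, beside 13.2% of all genes), and from 12 to 96 h 2 were called (Jag1 and Rbpj, beside 13.5%). The test over all times called 4 of the 8, Hes1, Jag1, Rbpj and Heyl, beside 27.4% of all genes, with edgeR adjusted p-values of 7.30e-06, 1.59e-05, 6.17e-05 and 0.0201.

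The patterns of these genes over the 19 samples differed from each other. As a description, Pearson's r of log2 CPM was 0.78 between Hes1 and Heyl, -0.66 between Hes1 and Rbpj and -0.71 between Heyl and Rbpj. Jag1 had r between -0.25 and 0.29 with each of the other 7. Samples share isolations and culture times, and for Heyl most points are zeros. The genes most like Hes1 among 8576 were Nkd1, Btg2 and Fos (r = 0.90 each), of which Fos encodes an AP-1 subunit and Nkd1 a feedback inhibitor of Wnt signalling. Those most like Rbpj were Csf1, a macrophage growth factor (r = 0.94), Pdzd8 (0.94) and Gm8822 (0.92). Those most like Jag1 were Atf3, a stress-induced transcription factor (r = 0.94), Mndal (0.93) and S1pr3, a sphingosine 1-phosphate receptor (0.93). For Notch1 they were Meaf6, Tmtc2 and Prpf40b (0.83 to 0.85) and for Notch2 Med8, Tmem60 and Arpc2 (0.70 to 0.78). The samples of Notch1 with no count enter its r, and Spearman's rho with these genes was lower, at 0.45, 0.61 and 0.6 for Meaf6, Tmtc2 and Prpf40b. Notch3 (Slc40a1, Mup19 and Zcchc8, 0.65 to 0.72) and Hey1 (Suox, Cdk1 and Wipi1, 0.73 to 0.81) rest on few samples with counts.

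The rest of the pathway was read from a list of 68 other genes, of which 57 were tested. Against 0 h, the numbers called at 3, 6, 12, 18, 24 and 96 h were 1, 9, 12, 7, 2 and 6 of the 57. These are 1.75%, 15.8%, 21.1%, 12.3%, 3.51% and 10.5% of the list, beside the shares of all genes given above. In all 21 of the 57 genes (36.8%) were called against 0 h at 1 time or more, beside 26.9% of all tested genes. Of the 21, 18 were lower and 3 higher. The shares of all genes here and below count both directions, and no share by direction is given beside this split. The counts by group that follow are also over the 6 comparisons with 0 h. The median log2 fold change of the 57 was between -0.64 and -0.05.

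**Figure D4:**
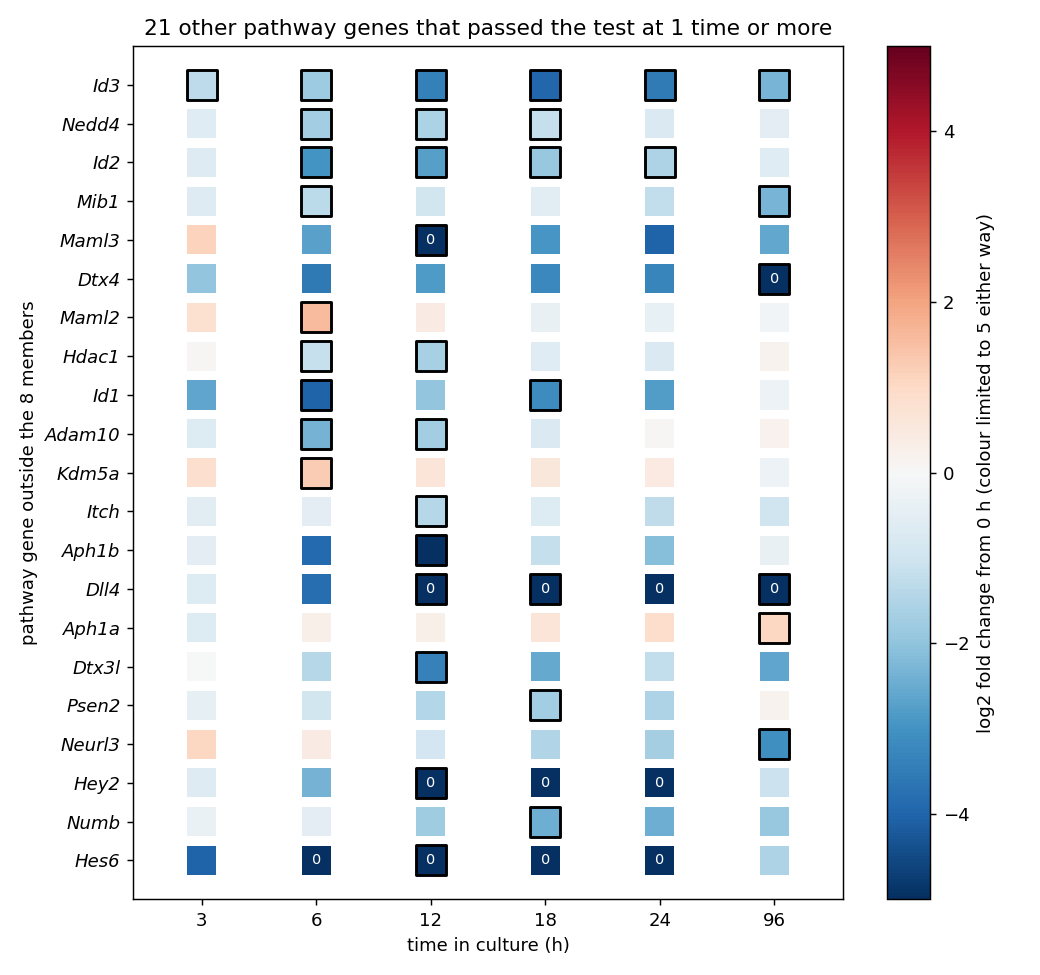
log2 fold change from 0 h (colour, blue lower and red higher, limited to 5 either way) of the 21 other pathway genes that passed the edgeR test, by time in culture in h. A black frame marks a call and a 0 a group with no counts, where the fitted size is not a bound. Id3 is framed at all 6 times, and Maml2, Kdm5a and Aph1a are the genes framed in red.

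Of the other receptors and ligands, Dll4 and Notch4 had enough counts to be tested among 8, and Jag2, Dll1, Dll3 and Dlk1 had no count in any sample. Dll4, a ligand of endothelial cells, had 29 and 23.5 CPM at 0 h in M2 and M3. At 3 h it had 30.1 CPM in M1 and 9.57 CPM in both M2 and M3. At 6 h it had 5.56 CPM in M2 and no count in the others, and from 12 h on it had no count in any sample. Dll4 was at least 37.9-fold lower at 12 h, 36.0-fold lower at 18 h and 30.6-fold lower at 96 h than at 0 h (edgeR adjusted p = 0.0492, 0.0561 and 0.073). With the replicate number as a block, the adjusted p was 0.102 at 18 h and 0.129 at 96 h. The 18 and 96 h calls were lost without any 1 of the samples compared, and the 12 h call without M2 or M3 at either time. Summed endothelial markers in the 3 h samples were 6736 CPM in M1, 3849 CPM in M2 and 3393 CPM in M3, and M1 was the highest at every time at which it was present. Without Plvap the sums at 3 h were 5322, 2146 and 1557 CPM in the same order. The part of endothelial cells in the Dll4 values was not tested.

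Genes that act on the ligand side include Mib1 and Neurl3, ubiquitin ligases of the families that drive ligand uptake. These 2 of the 5 tested (40.0%) were called against 0 h, beside the 26.9% of all genes. Mib1 went from 139.7 CPM in M2 and 76.6 CPM in M3 at 0 h to 22.6, 18.3 and 23.5 CPM at 96 h in M1, M2 and M3, with no overlap. It fell by 2.33 on the log2 scale at 96 h (SE 0.41, edgeR adjusted p = 0.0014) and by 1.34 at 6 h (adjusted p = 0.0501). The 6 h call was lost without M2 at 0 h or M1 at 6 h. Neurl3 fell by 3.06 at 96 h (adjusted p = 0.0909), a call lost without either 0 h sample or M1 at 96 h.

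Of the 4 tested genes for receptor glycosylation, among them Pofut1, Poglut1 and Rfng, edgeR called none against 0 h, beside 26.9% of all genes. DESeq2 called none either, and none had an unadjusted edgeR p under 0.05. Rfng had 30.6 to 32.3 CPM at 0 h and 0.593 to 3.97 CPM at 6 h, which did not overlap. Of 10 genes for receptor cleavage, 4 were called against 0 h, beside the 26.9% of all genes. Adam10, the sheddase of ligand-bound receptors, went from 56.6 and 68.6 CPM at 0 h to 12.7, 16.3 and 6.93 CPM at 6 h and stood at 80.1, 56.1 and 80.0 CPM at 96 h in M1, M2 and M3. Its log2 fold change was -2.38 at 6 h and -1.74 at 12 h (edgeR adjusted p = 0.0134 and 0.0529), and 96 h was higher than 6 h by 2.59 (adjusted p = 0.0046). The 12 h call was lost without either 0 h sample or without M2 or M3 at 12 h. Without the M1 samples the 6 h call (edgeR adjusted p = 0.12) and that of 96 h against 6 h (0.104) were lost too. Subunits of γ-secretase, the enzyme that frees the receptor fragment, were called in both directions. Aph1b was lower at 12 h (0.452 against 21.7 CPM, adjusted p = 0.0479), Psen2 was lower at 18 h (-1.74, adjusted p = 0.0762), and Aph1a was higher at 96 h, with 95.3 against 45.3 CPM (1.07, adjusted p = 0.0497). The Aph1a change was 0.99 with the replicate number as a block, under the fold limit, and its call was lost without either 0 h sample or M1 at 96 h. The Aph1b call was lost without M3 at 0 h or M1 or M3 at 12 h, and the Psen2 call without either 0 h sample or M2 or M3 at 18 h.

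Of 7 coactivators, the Mastermind genes Maml2 and Maml3 (28.6%) were called against 0 h, beside the 26.9% of all genes. Their products bind the receptor fragment together with RBPJ, and their calls went in opposite directions. Maml2 had 43.3 and 51.1 CPM at 0 h and 88.6, 165 and 167 CPM at 6 h, a log2 fold change of 1.57 (SE 0.34, edgeR adjusted p = 0.00706). It lost that call without M2 at 0 h (adjusted p = 0.116). By 12 h it was lower than at 6 h by 1.15 (adjusted p = 0.0736, and 0.101 with the replicate number as a block), a call lost without any 1 of these samples except M1 at 6 h. Maml3 had 62.3 CPM in M2 and 10.0 CPM in M3 at 0 h and no count at 12 h, which is at least 52.1-fold lower (adjusted p = 0.00207). It had 50.7, 93.6 and 98.5 CPM at 3 h and 6.82, 4.57 and 4.93 CPM at 6 h in M1, M2 and M3. These times did not overlap, but the edgeR test did not call Maml3 between them.

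Of 12 corepressors, Hdac1 and Kdm5a (16.7%) were called against 0 h, beside the 26.9% of all genes. Hdac1, a histone deacetylase, was 74.6 CPM on average at 0 h, 33.6 CPM at 6 h and 23.5 CPM at 12 h, and its log2 fold change was -1.15 and -1.67 (edgeR adjusted p = 0.0801 and 0.00774). With the replicate number as a block, the 6 h value had an adjusted p of 0.116, and it was also lost without any 1 of the samples compared. At 96 h Hdac1 had 75.5, 108 and 69.1 CPM, above all samples of 6 and 12 h. Its log2 fold change against these times was 1.33 and 1.84 (edgeR adjusted p = 0.0224 and 0.00278). The difference from 6 h lost its call without the M1 samples (edgeR adjusted p = 0.195). Rita1, a nuclear export factor of RBPJ, was called in 1 comparison, higher at 96 h than at 12 h, when it had no count (13.3 CPM on average, adjusted p = 0.0965, and 0.181 with the replicate number as a block), a call lost without any 1 of the samples compared except M2 at 96 h. Kdm5a, a histone demethylase, had 61.8 and 79.1 CPM at 0 h and 142, 180.1 and 185 CPM at 6 h (log2 fold change 1.26, adjusted p = 0.0206), a call lost without M2 at 0 h.

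Of 11 genes for receptor turnover, 5 were called against 0 h, beside the 26.9% of all genes in either direction, and all 5 were lower. Nedd4, a ubiquitin ligase, had 979 and 870.1 CPM at 0 h and 277, 257 and 291 CPM at 6 h, and fell by 1.75, 1.6 and 1.21 on the log2 scale at 6, 12 and 18 h (edgeR adjusted p between 6.63e-05 and 0.00114). With library size as the only scaling, the 18 h change was -0.97, under the fold limit. Nedd4 at 96 h exceeded its level at 6 h (log2 fold change 1.21, adjusted p = 6.70e-04) and 12 h (1.06, adjusted p = 0.00193), the latter lost without M1 at 12 h or M2 at 96 h. Cdk8, a kinase that marks the receptor fragment for breakdown, was lower at 96 h than at 6 h (-2.13, adjusted p = 0.0171) and 12 h (-2.07, adjusted p = 0.0205), both lost without the M1 samples. Itch, a related ligase, fell by 1.41 at 12 h (adjusted p = 0.0465), a call lost without M3 at 0 h or M1 or M2 at 12 h. Dtx4, of the Deltex family, had 40.8 and 98.7 CPM at 0 h and no count at 96 h, at least 81.3-fold lower (adjusted p = 0.00226). Dtx3l at 12 h (-3.36, adjusted p = 0.0725) and Numb at 18 h (-2.44, adjusted p = 0.0976) made up the rest, and Numb had an adjusted p of 0.14 with the replicate number as a block. Both calls were lost without either 0 h sample and without M1 or M2 at the later time.

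Of 6 tested genes listed as further targets, 5 were called against 0 h, beside the 26.9% of all genes in either direction. All 5 were lower. Id1, Id2 and Id3, inhibitors of helix-loop-helix factors, are better known as targets of bone morphogenetic proteins. Id3 had 2473 and 1718 CPM at 0 h, 611, 1023 and 941 CPM at 3 h and 193, 114 and 92.1 CPM at 18 h. It was called at all 6 times, with a log2 fold change of -1.29 (SE 0.32, edgeR adjusted p = 0.0282) at 3 h and -3.98 (SE 0.34, adjusted p = 8.31e-07) at 18 h. The 3 h call was lost without M2 at 0 h or M1 at 3 h. Id2 had 235 and 195 CPM at 0 h and 13, 33.2 and 34.3 CPM at 6 h (log2 fold change -3.0, adjusted p = 1.27e-04). Its 24 h call (-1.53, adjusted p = 0.0429) was lost with the replicate number as a block (-1.36, adjusted p = 0.112), which leaves 1 of the 57 genes at that time, and without M2 at 0 or 24 h. Id1 had 75.6 and 43.6 CPM at 0 h and 1.78, 6.16 and 2.92 CPM at 6 h (-4.03, adjusted p = 0.0119), but 39.8, 39.8 and 67.9 CPM at 96 h. Id1 at 96 h exceeded its level at 6 h (log2 fold change 3.75, adjusted p = 0.0117), as did Id2 (2.40, adjusted p = 3.83e-04), which also exceeded its level at 12 h (2.17, adjusted p = 8.47e-04). The 96 h samples also exceeded those of 12 h in Id3 (log2 fold change 1.09, adjusted p = 0.0223), lost without M3 at 12 h, and those of 24 h (1.22, adjusted p = 0.0834), lost without any 1 of the samples compared. Hes6 and Hey2 had no count at 12 h (adjusted p = 0.0979 and 0.0926), the Hey2 call was lost with the block (0.169), and both were lost without any 1 of the samples compared.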

How the data were processed

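RNA was measured in 19 samples of HSCs at 7 times. The authors used the QuantSeq 3′ FWD kit, which carries no molecular identifiers, single-end NovaSeq reads, STAR and StringTie with mm10 (GRCm38.p6), and deposited raw counts per Ensembl gene. The step from alignments to counts, its strand setting and the annotation release are not given in the sources used here. Symbols were matched for 55141 of 55487 IDs. Depth is given as total counts, and intervals or limits from counts cover counting error only.

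Genes were filtered with filterByExpr and fitted once over all samples in edgeR 4.0.16 (R 4.3.3, TMM, quasi-likelihood test, time as the only term), with Benjamini-Hochberg adjustment over 15138 genes. A call needs an adjusted p below 0.1 and a fold above 2. The 8 genes and all lists were chosen with earlier results of these data known. Named pathway genes are the 15 with the smallest adjusted p against 0 h among those called, and the other 6 called genes, Cdk8 and Rita1 were named after their values were seen. Genes of like pattern are the 3 with the highest r of log2 CPM (prior count 2), among genes tested whose mean reached 10 CPM; those for Heyl are not reported here. One gene entered as a corepressor by mistake, Kyat1, was removed from the list after the data had been seen. The fits were tested on simulated data. The labels do not say whether a number is a mouse or a pool, so p-values measure the spread between these samples, which may in part be technical.

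The labels tie each number to an isolation date, so samples of 1 number share an isolation date. Deviations from the time means correlated by 0.014 on average within numbers (51 pairs, -0.072 to 0.082) and by -0.007 between numbers (103 pairs). Alternatives were other scalings, DESeq2 1.42.0, no filter, the number as a block, isolation date, fits of the compared groups alone, other thresholds, each sample left out and, added after seeing the data, M1 left out and Rbpj-ps3 counts added to Rbpj. Leaving out a sample at 0 or 24 h keeps only 1 sample of that time. Figures were drawn with matplotlib 3.10.9.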

Additional observations from a re-analysis of the deposited data

How the results depend on the processing

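The 6 calls of Rbpj against 0 h, those of Hes1 at 6 to 96 h, those of Heyl at 12 and 18 h and those of Jag1 at 96 h against 0, 6 and 12 h held under every alternative run, and no called value of the 8 genes or of the other pathway genes turned its direction. With all library sizes taken as deposited, the median gene moved by up to 0.27 on the log2 scale, and with DESeq2 size factors by up to -0.24. No called gene changed sign with either, but Jag1, Notch1, Notch2 or Rbpj, where not called, did in some comparisons.

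Of the 8 genes, DESeq2 called 1 from 12 to 18 h (Hes1), beside 424 of all genes. From 3 to 6 h 0 were called with library size only and at an adjusted p below 0.05. In a fit of the compared groups alone, Notch1 was called at that step in place of Hes1. From 12 to 96 h 1 was called with library size only, DESeq2 size factors, DESeq2, no filter, without M1 and with Rbpj-ps3 added. From 24 to 96 h 0 were called without M1. Against 0 h, leaving out 1 sample gave 1 to 2 calls for 3 h, 2 to 3 for 6 h, 3 for both 12 and 18 h, 2 for 24 h and 3 to 4 for 96 h. For the other comparisons it gave 0 to 1 from 3 to 6 h, 0 for the next 3 steps, 1 from 24 to 96 h, 1 to 2 from 6 to 96 h and from 12 to 96 h, and 4 to 5 over all times.

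Of the other pathway genes against 0 h, DESeq2 called 4, 14, 10 and 10 at 3, 18, 24 and 96 h. Fits of the compared groups alone called 3, 12 and 8 at 3, 18 and 24 h. At 18 h 4 were called with library size only and at an adjusted p below 0.05. At 24 h 4 were called with DESeq2 size factors, with no limit on the fold and without M1, and 1 with the replicate block. Without M1, 7 were called at 12 h and 3 at 96 h. Leaving out 1 sample gave 0 to 2, 7 to 10, 5 to 9, 5 to 7, 2 to 4 and 3 to 5 calls at 3, 6, 12, 18, 24 and 96 h. The replicate block changed no call against 0 h of a named gene other than those given with their results. Notch3 and Hey1 had counts in 2 and 6 of the 19 samples, so small changes in them were not detectable at this depth. Over all genes, DESeq2 called 1534, 2589, 3398, 3078, 2229 and 2378 at 3, 6, 12, 18, 24 and 96 h. In edgeR these were 844, 1715, 2680, 2400, 1440 and 1644, and without M1 475, 1141, 1915, 1610, 786 and 1147. Counts of all genes under the other alternatives are not given here. Leaving out M1 and adding Rbpj-ps3 were chosen after seeing the data. The causes of these changes were not tested.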
